A study of Homo sapiens with 16 samples.

Results

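The MCM helicase and origin licensing genes are 10 of the 12676 genes listed with RNA-seq read counts from H1299 cells. They were picked out by symbol, from a list drawn up with earlier results of these data known. They comprise MCM2, MCM3, MCM4, MCM5, MCM6 and MCM7, which encode the 6 subunits of the replicative helicase, CDC6 and CDT1, which load it onto DNA, GMNN, which encodes geminin, the inhibitor of CDT1, and MCM10, a replication factor that binds the helicase when origins fire. All 10 were listed in the table, and all 10 passed the filter of at least 10 reads in at least 2 libraries.

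H1299 is an established human non-small cell lung cancer line, and YEATS2 is the histone-acetylation reader subunit of the ATAC acetyltransferase complex. RNA-seq was carried out on 2 libraries of cells infected with a non-targeting control shRNA (shNT) and 2 libraries of cells infected with an shRNA against YEATS2 (shYEATS2), and the comparison asks which transcripts change when YEATS2 is depleted. Both groups carried a pLKO shRNA vector, were infected in 8 µg/ml polybrene, received 2 µg/ml puromycin after 48 h, and were selected for 4 to 7 days, so both are populations of infected cells. The shRNA of the knockdown libraries, shY2-1, is not named in the labels. Both libraries carried this shRNA by the paper's account, so effects of YEATS2 loss and other effects of the shRNA cannot be told apart here. The paper reports that a significant number of its downregulated genes were shared with another shRNA of partial knockdown, which was not examined here. The study describes the replicates as biologically independent, and p-values measure the spread between these libraries.

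Licensing prepares each origin of replication to be used once per cell cycle. In late mitosis and G1 phase, the origin recognition complex, CDC6 and CDT1 load pairs of MCM2-7 rings onto DNA. In S phase, kinases recruit CDC45 and the GINS complex to the loaded rings, which turns them into active helicases, while geminin and the destruction of CDT1 prevent loading a further time. Many of these genes are known targets of the E2F transcription factors, and their transcripts are most abundant around the transition from G1 into S phase.

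The promoter sequences of the members are shown because the transcripts moved together, as described further on. The RefSeq promoter table (GRCh38.p14, 250 bases before to 50 bases after each start) held at least 1 entry for 8 of the 10 members, all except MCM4 and MCM5. In each of the 8 genes the window of at least 1 start contained a word of the E2F type, here TTTGGCGC, TTTGGCGG, TTTCGCGC or TTTCGCGG on either strand. These 4 words were chosen after the sequences had been seen, so their count in the members does not test for enrichment. The 8 genes have 11 windows in all, of which 8 contained one, and of all 35116 promoter windows of the same length 769 (2.19%) did. Counted by gene, 473 (4.85%) of the 9754 tested genes matched to an entry had a word in at least 1 window. Each stretch is printed 5′ to 3′ on the strand of its gene, with the E2F-type words in capitals.
CDC6 (chr17:40287836-40287908, plus strand): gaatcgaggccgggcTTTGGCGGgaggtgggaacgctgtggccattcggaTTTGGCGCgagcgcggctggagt
CDT1 (chr16:88803725-88803784, plus strand): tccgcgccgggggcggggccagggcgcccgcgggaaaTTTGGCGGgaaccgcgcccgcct
GMNN (chr6:24775296-24775355, plus strand): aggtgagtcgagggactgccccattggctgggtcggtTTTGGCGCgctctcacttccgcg
MCM10 (chr10:13161526-13161585, plus strand): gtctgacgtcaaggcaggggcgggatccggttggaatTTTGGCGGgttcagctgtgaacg
MCM2 (chr3:127598380-127598439, plus strand): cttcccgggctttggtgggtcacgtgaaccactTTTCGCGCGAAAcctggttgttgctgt
MCM3 (chr6:52284724-52284783, minus strand): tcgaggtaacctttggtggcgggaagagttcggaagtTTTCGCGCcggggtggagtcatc
MCM6 (chr2:135876507-135876610, minus strand): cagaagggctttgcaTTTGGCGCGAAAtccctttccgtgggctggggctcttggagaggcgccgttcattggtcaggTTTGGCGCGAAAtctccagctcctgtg
MCM7 (chr7:100101384-100101443, minus strand): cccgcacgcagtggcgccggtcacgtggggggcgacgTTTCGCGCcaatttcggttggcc

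The 12-base capitals in MCM2 and MCM6 are words on both strands that overlap in their middle bases, once in MCM2 and at 2 places in MCM6. CDC6 carried 2 separate words, the first beginning 28 bases upstream of its start and the other at base 8 of the transcript. In the 5 genes with a single word it began between 80 bases upstream, in GMNN, and base 6 of the transcript, in MCM10. The CCAAT box (CCAAT on either strand) was found in 8 of the 11 promoter windows of these genes and in 34.6% of all windows, and the E-box CACGTG, whose letters read the same on both strands, in 3 of the 11 and in 7.26% of all windows. In MCM7 the last base of the E2F-type word is also the first base of a CCAAT box. A match describes these letters only, and binding at them was not analysed here.

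Read counts were scaled by the TMM factors of edgeR to the mean effective library size, so that the values of 1 gene can be compared between libraries. The 4 libraries held 34718921 to 39417787 reads in the listed genes, and their TMM factors lay between 0.952 and 1.05. YEATS2 itself had 4483 and 4104 scaled reads in the shNT replicates and 665 and 673 in the shYEATS2 replicates, a remainder of 15.6% in the knockdown that was alike in its replicates (edgeR's quasi-likelihood test, adjusted p = 0.000583). Of the markers set for H1299 cells, KRT8, KRT18, VIM and CDH2 were all listed, and none of the 8 markers of blood, endothelial and erythroid cells was.

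Transcripts of the licensing genes were lower after YEATS2 knockdown. Of the 10, 8 fell at an adjusted p under 0.01 in the quasi-likelihood test of edgeR, adjusted over all 12676 genes by the Benjamini-Hochberg method, and none rose. MCM5 and MCM6 did not pass. All 10 genes were below an unadjusted p of 0.05 in that test, as were 7164 of the 12676 genes in either direction. Over all genes, 12.5% were called lower (1581) and 12.9% higher (1630), a split that moved to 1166 lower and 2363 higher with scaling by total counts. For each of the 10 genes both shYEATS2 libraries lay below both shNT libraries, an order found in 39.8% of all genes. The median log2 fold change of the 10 genes was -1.22, against -0.0019 over all genes, and between 0.292% and 5.5% of all genes had a lower fold change than each member. In bulk RNA, fewer cells in the phase that expresses these genes and less RNA in each cell cannot be told apart. By flow cytometry, the paper reports G1 arrest after YEATS2 knockdown. The paper lists DNA replication and cell cycle among the pathways of its downregulated genes. That list comes from RNA-seq of this same comparison, so it adds no separate evidence.

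**Figure D1:**
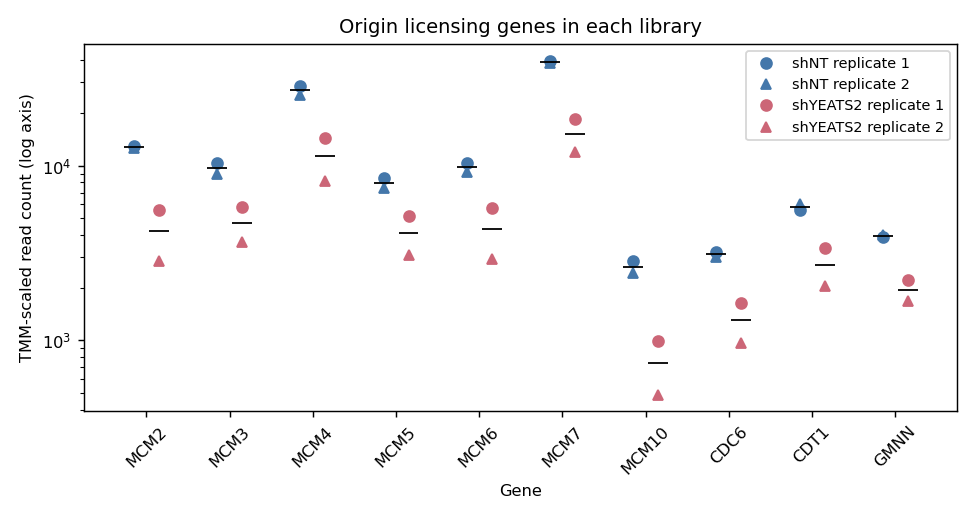
TMM-scaled read counts (log axis) of the 10 licensing genes in each library, with the 2 shNT libraries in blue, the 2 shYEATS2 libraries in red, circles for replicate 1, triangles for replicate 2 and a black line at each group's mean. Both shYEATS2 values lie below both shNT values in all 10 genes, and replicate 2 is the lower of the shYEATS2 libraries in each.

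The log2 fold changes of the hexamer subunits ranged from -1.60 to -0.96. MCM2 (ENSG00000073111, chr3:127317253-127341279 in GRCh37, plus strand) had 12900 and 12576 scaled reads in the shNT replicates and 5554 and 2850 in the shYEATS2 replicates. The control libraries nearly coincided, both knockdown libraries were below them, and replicate 2 of the knockdown was at 51.3% of replicate 1. MCM2 had the largest change of the 6 subunits, with a log2 fold change of -1.60 (SE 0.28, edgeR's quasi-likelihood test, adjusted p = 0.00486), which left 33.0% of the control level.

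MCM7 (ENSG00000166508, chr7:99689856-99699563, minus strand) had 39775 and 38639 scaled reads in the shNT replicates and 18415 and 11869 in the shYEATS2 replicates. The groups were well apart, and the knockdown mean was 38.6% of the control mean. Its log2 fold change was -1.37 (SE 0.20, edgeR's quasi-likelihood test, adjusted p = 0.00261), the smallest adjusted p among the subunits. MCM4 (ENSG00000104738, chr8:48872745-48890720, plus strand) stood at 28373 and 25425 in the controls and at 14362 and 8183 after knockdown. All MCM4 values after knockdown were below the lower control. The MCM4 log2 fold change was -1.25 (SE 0.24, edgeR's quasi-likelihood test, adjusted p = 0.00698).

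MCM3 (ENSG00000112118, chr6:52128812-52149679, minus strand) had 10359 and 8911 scaled reads in the controls and 5790 and 3637 in the knockdown. Its groups did not overlap, and its log2 fold change was -1.03 (SE 0.21, edgeR's quasi-likelihood test, adjusted p = 0.00840). The MCM3 call was near the threshold: it was lost with scaling by total counts (adjusted p = 0.0108 with edgeR). Without shNT replicate 1 the log2 fold change of MCM3 was -0.92. Such a fit takes the spread from the knockdown libraries alone, so its call is not given.

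The subunits that missed the threshold were MCM6 and MCM5. MCM6 (ENSG00000076003, chr2:136597196-136634013, minus strand) had 10392 and 9224 scaled reads in the controls and 5701 and 2925 in the knockdown, a log2 fold change of -1.19 (SE 0.28, edgeR's quasi-likelihood test, adjusted p = 0.0139). Replicate 2 of the knockdown was at 51.3% of replicate 1, the same ratio as in MCM2. MCM5 (ENSG00000100297, chr22:35796127-35821424, plus strand) had 8534 and 7451 scaled reads in the controls and 5156 and 3060 in the knockdown, a log2 fold change of -0.96 (SE 0.23, edgeR's quasi-likelihood test, adjusted p = 0.0143), the smallest fold change of the 10. The groups of both genes were apart, an order found in 39.8% of all genes. Without shYEATS2 replicate 2, edgeR gave MCM5 a log2 fold change of -0.63 and MCM6 one of -0.78. Without shYEATS2 replicate 1 they were -1.385 and -1.746. These fits take the spread from the controls alone, so they cannot decide whether MCM5 and MCM6 pass.

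The composition of the hexamer transcripts was then compared within each library, as the share of each subunit in the summed scaled reads per kb of exon of MCM2 to MCM7. This sum was 51.5% of the control mean in shYEATS2 replicate 1 and 30.6% in replicate 2. MCM7 had the largest share, with a mean of 40.7% in shNT and 38.6% in shYEATS2, and its libraries overlapped. MCM4, with mean shares of 14.0% and 14.2%, and MCM6, with 12.2% and 12.8%, overlapped between the groups too. The size of a share depends on the length used: with the longest coding transcript the mean shares of MCM4 were 20.7% and 21.1%.

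The share of MCM2 was 13.6% and 14.2% in the shNT replicates and 11.7% and 10.2% in the shYEATS2 replicates. MCM2 thus took a smaller share in both knockdown libraries, with a mean difference of -2.95 percentage points (SD 1.22). The SD given with a difference of shares is the square root of the summed squares of the group SDs. It is not the standard error of the difference. MCM3 had shares of 14.1% and 13.0% in the controls and 15.8% and 16.8% after knockdown, and MCM5 had 5.82% and 5.47% in the controls and 7.08% and 7.07% after knockdown. The shares of MCM3 and MCM5 were higher in both knockdown libraries, by 2.73 points (SD 0.98) and 1.43 points (SD 0.25). With 2 libraries against 2, an exact two-sided permutation test cannot give a p below 0.333, so these shares are given as values. The direction and the separation of the groups for MCM2, MCM3 and MCM5 were the same when reads were not divided by length or were divided by the longest coding transcript.

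**Figure D2:**
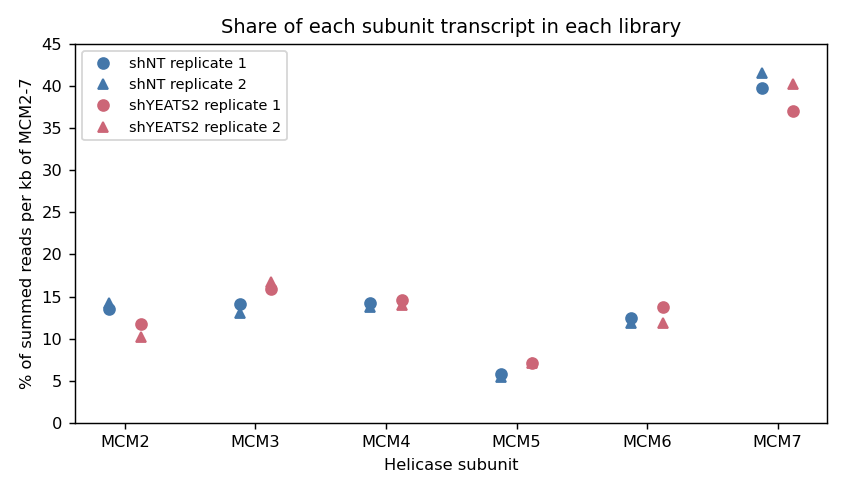
Share (%) of each helicase subunit in the summed scaled reads per kb of exon of MCM2 to MCM7, in each shNT (blue) and shYEATS2 (red) library, with circles for replicate 1 and triangles for replicate 2. MCM2 is lower and MCM3 and MCM5 are higher in both knockdown libraries, while the points of MCM4, MCM6 and MCM7 overlap between groups.

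The loading factors fell as well. CDC6 (ENSG00000094804, chr17:38444131-38460909, plus strand) is the ATPase that joins the origin recognition complex to recruit the helicase. It had 3214 and 3010 scaled reads in the shNT replicates and 1644 and 960 in the shYEATS2 replicates. The knockdown mean was 41.8% of the control mean, with no overlap, and the log2 fold change of CDC6 was -1.26 (SE 0.23, edgeR's quasi-likelihood test, adjusted p = 0.00569). CDT1 (ENSG00000167513, chr16:88870197-88875666, plus strand), which brings the MCM2-7 ring to CDC6, had 5577 and 6011 scaled reads in the controls and 3378 and 2046 in the knockdown. These groups did not overlap either. The log2 fold change of CDT1 was -1.10 (SE 0.22, edgeR's quasi-likelihood test, adjusted p = 0.00755), and -1.04 without shNT replicate 2.

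GMNN (ENSG00000112312, chr6:24775159-24786327, plus strand) encodes geminin, which binds CDT1 and blocks relicensing from S phase to mitosis. It had 3916 and 4007 scaled reads in the controls and 2207 and 1683 in the knockdown. The inhibitor transcript was thus lower in both knockdown libraries, together with that of its target. Geminin had the smallest adjusted p of the 10 genes, with a log2 fold change of -1.03 (SE 0.14, edgeR's quasi-likelihood test, adjusted p = 0.00233). The ratio of CDT1 to GMNN scaled reads was 1.42 and 1.50 in the shNT replicates and 1.53 and 1.22 in the shYEATS2 replicates, so the knockdown values lay on either side of the controls.

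MCM10 (ENSG00000065328, chr10:13203558-13253110, plus strand) had 2861 and 2419 scaled reads in the controls and 995 and 490 in the knockdown. It had the largest fold change of the 10 genes, -1.83 on the log2 scale (SE 0.30, edgeR's quasi-likelihood test, adjusted p = 0.00391), and kept 28.1% of the control level. The SE of MCM10 was also the widest of the 10. Without shYEATS2 replicate 1 its log2 fold change was -2.43, and without replicate 2 it was -1.41.

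Levels were compared between genes only per kb of exon. In the shNT libraries MCM7 had the highest mean, 7905 scaled reads per kb (SD 162), followed by MCM4 with 2730 (SD 212), MCM2 with 2702 (SD 48.6), MCM3 with 2643 (SD 281) and MCM6 with 2372 (SD 200). Compared across libraries, each of these last 4 subunits overlapped its neighbour in this order, though MCM3 stood above MCM6 within each library. CDT1 with 2099 (SD 111), GMNN with 1600 (SD 26.2), MCM5 with 1100 (SD 105), CDC6 with 586 (SD 27.1) and MCM10 with 484 (SD 57.3) followed, each below the one before in both libraries.

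After knockdown MCM7 was still first, at 3053 scaled reads per kb (SD 933), and CDC6, at 245 (SD 91.0), and MCM10, at 136 (SD 65.5), were last. Between them came MCM3, MCM4, MCM6, CDT1, MCM2, GMNN and MCM5 in descending order of their means. Compared across libraries, each of these overlapped the next, and so did CDC6 and MCM10. Within each library, however, CDC6 stood above MCM10, at 310 against 182 in replicate 1 and 181 against 89.8 in replicate 2. MCM3 and MCM4, MCM4 and MCM6, CDT1 and MCM2, and GMNN and MCM5 also kept their order in both. MCM6 and CDT1, and MCM2 and GMNN, changed places between the libraries. MCM2 moved from the third to the sixth place in this order of means. The order below MCM7 depended on the length used. With the longest coding transcript in place of all exons, MCM4 in the controls stood at 6431 scaled reads per kb, well above MCM2 at 3709. GMNN, at 3137, then stood above MCM3 (3003) and MCM6 (2613), and both GMNN and MCM5 stood above CDT1.

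The 2 knockdown libraries differed in how far the licensing genes fell. In shYEATS2 replicate 1 the 10 genes stood at 37.7% to 64.5% of the shNT mean, with a median of 54.6%. In replicate 2 they stood at 18.6% to 42.5%, with a median of 30.6%. Replicate 2 was below replicate 1 in 10 of 10 genes, at 49.2% (MCM10) to 76.3% (GMNN) of its level, whereas 50.6% of all genes in the table were lower in replicate 2. In shNT too, replicate 2 was below replicate 1 in 8 of the 10 genes. There the 10 genes stood at 84.6% (MCM10) to 108% (CDT1) of the level in replicate 1.

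The remaining YEATS2 transcript had a log2 ratio of 0.016 between replicate 2 and replicate 1 of the knockdown. The median log2 ratio of replicate 2 to replicate 1 was -0.76 over the 10 genes and -0.0041 over all genes in shYEATS2, and -0.13 over the 10 genes in shNT. Without shYEATS2 replicate 1 the median log2 fold change of the 10 genes was -1.71, and without replicate 2 it was -0.87. The lone knockdown library is then assumed to vary as the controls do, so calls from these fits add no support and are not given.

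**Figure D3:**
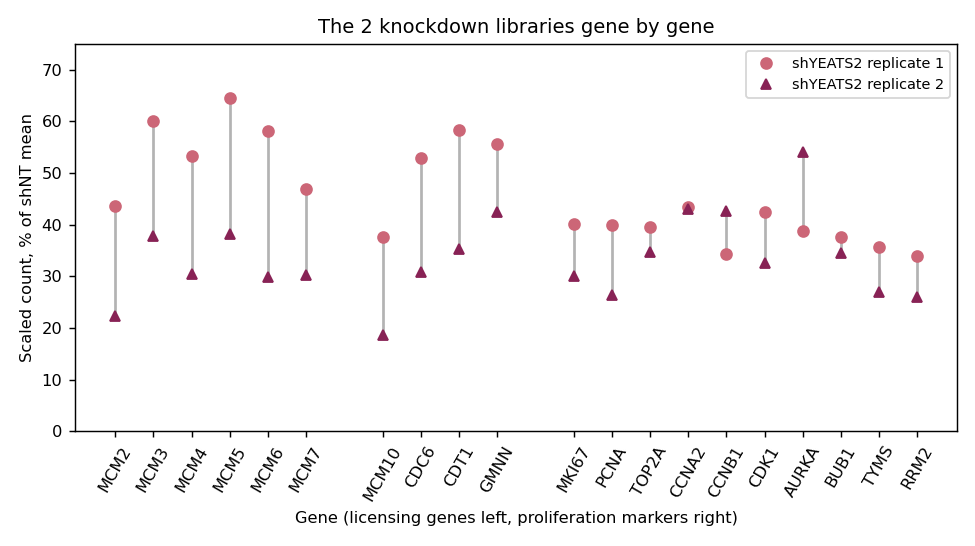
Scaled count in each shYEATS2 library as a percentage of the shNT mean, for the 10 licensing genes on the left and 10 proliferation markers on the right, with circles for replicate 1, triangles for replicate 2 and a grey line joining them. Replicate 2 is lower for all 10 licensing genes and for 8 of the 10 markers, CCNB1 and AURKA being the exceptions.

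Proliferation markers moved with the licensing genes. All 10 of them fell (12.5% of all genes were called lower), with a median log2 fold change of -1.45 (-0.0019 over all genes). The largest changes were in RRM2 (-1.74) and TYMS (-1.67), enzymes of nucleotide synthesis, PCNA (-1.59), the sliding clamp of the polymerases, MKI67 (-1.51), BUB1 (-1.47) and TOP2A (-1.43), all at an adjusted p of at most 0.00158 with edgeR's quasi-likelihood test. Their summed scaled reads were 123870 and 133140 in shNT and 48899 and 43943 in shYEATS2, which is 38.1% and 34.2% of the control mean. Between the knockdown libraries the sum of the markers therefore differed less than that of the hexamer. AURKA, a mitotic kinase, stood at 38.8% of the shNT mean in replicate 1 and 54.1% in replicate 2, and CCNB1, the mitotic cyclin, at 34.3% and 42.7%, the opposite order to the licensing genes. In the controls too, replicate 2 was above replicate 1, at 124% of it for AURKA and 119% for CCNB1, against 140% and 125% in the knockdown. The H1299 markers summed to 88.1% and 69.6% of the control mean, a sum in which VIM had the most reads. KRT8 (139% and 108%) and CDH2 (135% and 121%) were above the control mean in both knockdown libraries, VIM (85.2% and 69.7%) and KRT18 (72.2% and 41.5%) were below it, and none of the 4 was called. The part of proliferation in the fall of the licensing genes was not tested.

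The origin recognition complex marks the sites where the helicase is loaded, and of its 6 subunits 2 fell and none rose (12.5% and 12.9% of all genes), with a median log2 fold change of -0.37. ORC1, the subunit that is degraded after G1 phase in human cells, had 1945 and 1787 scaled reads in the controls and 859 and 466 in the knockdown, a log2 fold change of -1.50 (SE 0.26, edgeR's quasi-likelihood test, adjusted p = 0.00469). ORC5, an ATPase subunit of the complex, had 1485 and 1392 in the controls and 611 and 489 in the knockdown, a log2 fold change of -1.39 (SE 0.14, edgeR's quasi-likelihood test, adjusted p = 0.00114).

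The fold changes of ORC1 and ORC5 lay within the range of the helicase subunits. The other subunits were not called, with log2 fold changes of -0.52 for ORC6 (adjusted p = 0.0208 with edgeR), -0.22 for ORC2, -0.07 for ORC4 (0.048 with scaling by total counts) and 0.06 for ORC3. The ratio of CDC6 to ORC1 scaled reads was 1.65 and 1.68 in the shNT replicates and 1.91 and 2.06 in the shYEATS2 replicates, so it was higher in both knockdown libraries, and the ratio of CDC6 to CDT1 was 0.576 and 0.501 in shNT and 0.487 and 0.469 in shYEATS2. These ratios are given as values without a test.

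Factors that turn the loaded helicase into an active one were also lower. Of 17 such origin firing genes, 14 fell and none rose (12.5% and 12.9% of all genes), with a median log2 fold change of -1.05. Among those called, the largest changes were in GINS4 (-1.85), CDC7 (-1.47), GINS2 (-1.28), GINS3 (-1.26), CDC45 (-1.22) and RECQL4 (-1.06), all at an adjusted p of at most 0.00912 with edgeR's quasi-likelihood test. GINS2, GINS3 and GINS4 encode subunits of the GINS complex, CDC45 is the other partner of MCM2-7 in the active helicase, and CDC7 is the catalytic subunit of the kinase that phosphorylates MCM2-7. CLSPN, with a log2 fold change of -1.14 (adjusted p = 0.0161 with edgeR), and TIPIN, with -0.87 (adjusted p = 0.0179 with edgeR), which both act at the moving fork, did not pass. Scaling by total counts reduced the count from 14 to 12, and CDC45 was among those lost (adjusted p = 0.0109 with edgeR). Without shNT replicate 1 the log2 fold change of CDC45 was -1.11.

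Genes that control licensing were compared next. Of the 13 genes listed, 5 fell and none rose (12.5% and 12.9% of all genes), and the median log2 fold change was -0.30. CUL4A had the largest change, from 4561 and 3956 scaled reads in the controls to 1082 and 786 in the knockdown, a log2 fold change of -2.19 (SE 0.17, edgeR's quasi-likelihood test, adjusted p = 0.000842). CUL4A is a scaffold of the ubiquitin ligase that marks CDT1 for destruction in S phase, and DTL, the substrate receptor of that ligase, fell by 1.12 on the log2 scale. Also called lower were CCNE2 (-1.74), a cyclin E, CDK2 (-0.90), its kinase partner, and CCNF, the ligase subunit that targets CDC6, at 49.9% of its control level. LRWD1, which binds the origin recognition complex (-0.32), and FZR1, an activator of the anaphase-promoting complex (-0.30), had the largest changes among those not called. Without shNT replicate 1 the log2 fold change of CDK2 was -0.87.

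Of 5 relatives of the helicase subunits, 1 fell and none rose, a count close to the 12.5% of all genes called lower. MCM8, which forms a separate helicase with MCM9 in DNA repair, fell by 1.13 on the log2 scale (SE 0.20, edgeR's quasi-likelihood test, adjusted p = 0.00502), with 3060 and 2831 scaled reads in the controls and 1647 and 1056 in the knockdown. MCMBP, which binds MCM subunits, had a log2 fold change of -0.65 (adjusted p = 0.0136 with edgeR), and MCMDC2, a meiotic relative counted in few reads, one of 0.55 (adjusted p = 0.0591 with edgeR). MCM9 had 1171 and 1173 scaled reads in the controls and 1552 and 1415 in the knockdown, above the controls in both libraries, a log2 fold change of 0.34 (adjusted p = 0.0306 with edgeR). Scaling by total counts, which raised the median of all genes to 0.12, was the one scaling under which MCM9 was called higher (adjusted p = 0.00982 with edgeR).

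**Figure D4:**
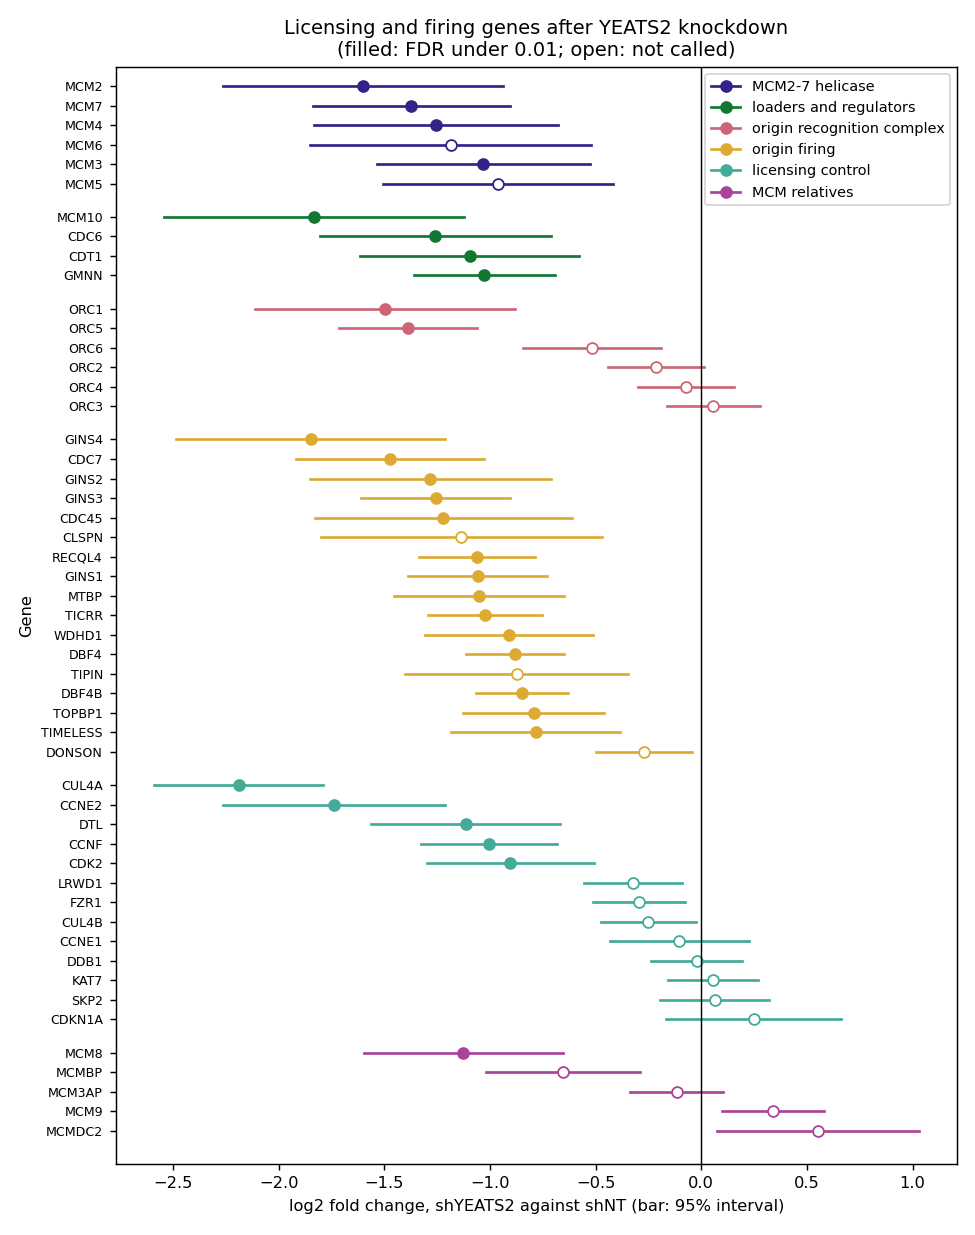
Log2 fold change of shYEATS2 against shNT for the licensing genes and 4 lists of related genes, with bars for the 95% interval of edgeR's quasi-likelihood fit and filled points for an adjusted p under 0.01. The helicase subunits, loaders and origin firing genes all lie below 0, while the origin recognition complex, the licensing control genes and the MCM relatives lie on either side of it.

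Some members share their start region with a gene on the opposite strand, and those partners were compared with them. TPRA1 starts 143 bases from MCM2 and is read away from it. It had 1507 and 1416 scaled reads in shNT and 1737 and 1537 in shYEATS2, a log2 fold change of 0.16 (SE 0.11, edgeR's quasi-likelihood test, adjusted p = 0.237). PRKDC, which encodes the catalytic subunit of DNA-dependent protein kinase, starts 7 bases from MCM4, also read away from it, and had 54384 and 55916 scaled reads in shNT and 43986 and 39536 in shYEATS2. Both PRKDC values after knockdown were below the controls, but its log2 fold change was -0.40 (SE 0.10, edgeR's quasi-likelihood test, adjusted p = 0.0157). AP4M1 starts 391 bases from MCM7 within a stretch that both genes cover, and its log2 fold change was -0.51 (SE 0.12, edgeR's quasi-likelihood test, adjusted p = 0.0130). The library kit does not mark strand, so reads of MCM7 and AP4M1 from that stretch cannot be told apart.

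The pattern of the helicase over the 4 libraries was last compared with that of every other gene. The mean of MCM2 to MCM7 stood at 0.71 and 0.58 in shNT and -0.24 and -1.04 in shYEATS2, as log2 CPM (reads scaled to a common library size) centred on the mean of the 4 libraries. Among the members themselves MCM4 and CDC6 lay nearest to this mean, at Euclidean distances of 0.027 and 0.039 log2 units, and MCM10 lay farthest, at 0.65. MCM4 is itself part of the mean, which brings it nearer, whereas CDC6 and MCM10 are not. Of the genes outside the lists, the 5 nearest were MMS22L (0.024), which acts in the repair of stalled forks, FPGT (0.061), CHAF1B (0.073), a subunit of the chromatin assembly factor that works at the fork, LEF1 (0.075) and WDR76 (0.078), against a median distance of 1.42 over all genes. MMS22L had 5393 and 4970 scaled reads in shNT and 2755 and 1611 in shYEATS2. These distances rest on 4 libraries and describe likeness only.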

How the data were processed

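The authors prepared mRNA libraries from H1299 cells, used the RNA-Seq unified mapper to place the reads on hg19, and counted reads per gene with HTSeq. The submitters' processing notes also name TopHat2 (2.0.10). The deposited values are raw read counts per gene, in whole numbers. The annotation used is not given in the sources used here. Each gene listed has at least 101 reads in its highest library. Columns of the authors' own fold changes and p-values were not used. The 12 ChIP-seq samples were not used here.

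Groups were taken from the labels. From the counts, all genes were tested with the quasi-likelihood test of edgeR (4.0.16, under R 4.3.3) on 2 shNT and 2 shYEATS2 libraries with TMM scaling, no replicate block, Benjamini-Hochberg adjustment over the 12676 genes with at least 10 reads in 2 libraries, and a threshold of 0.01. Alternatives were edgeR's exactTest, DESeq2 (1.42.0), limma-trend with a prior count of 2 (limma 3.58.1), other scalings and filters, a threshold of 0.05, a replicate block, and each library left out in turn. The scripts were tested on simulated data. Counts of replicate libraries differed beyond sampling noise (chi-square per degree of freedom 17.9 and 38.0), so none was the same library listed again. Whether the replicates came from separate cultures cannot be seen from this. Identifiers were matched to a GENCODE annotation on GRCh37 (12465 of 12676, 98.3%), which gave positions and exon lengths.

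The members and gene lists were chosen with earlier results of these data known. Genes named are the members, YEATS2, the ORC subunits, in each other list up to 6 with the largest called change and 2 with the largest uncalled change, opposite-strand genes starting within 1 kb of a member, and the 5 genes nearest in pattern to MCM2-7. MCM9, AURKA, CCNB1 and the genes that turned direction under an alternative were named after their values had been seen.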

Additional observations from a re-analysis of the deposited data

How the results depend on the processing

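The median log2 fold change of the 10 licensing genes lay between -1.71 and -0.87 under all alternatives, and every member stayed negative. With all 4 libraries the number called lower was 7 to 10, against 8: 9 with DESeq2 (all but MCM6), 10 with exactTest and with a threshold of 0.05, and 7 with total counts. Fits with 1 library left in a group are not counted here. Over all genes the calls moved from 1581 lower and 1630 higher to 2497 and 2596 with exactTest, 3011 and 3093 at a threshold of 0.05, and 1166 and 2363 with total counts. With each library left out they were 850 to 2032 lower and 775 to 1991 higher, lowest without shNT replicate 1. Of the MCM relatives, 2 instead of 1 were lower with DESeq2, exactTest, the block and a threshold of 0.05. The pathway lists gave 0 genes higher by edgeR's quasi-likelihood test and 0 by DESeq2 and exactTest. In the quasi-likelihood test 2 of the MCM relatives (MCM9 and MCMDC2) were higher at an unadjusted p under 0.05. That level was passed by 7164 of all 12676 genes in either direction. With total counts 1 gene of the lists was called higher, MCM9, and 1 at a threshold of 0.05. The share of MCM5 in the hexamer rose by 1.88 points without division by length and 1.89 with the coding transcript.

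Genes near 0 turned direction. With total counts the log2 fold changes were 0.048 for ORC4, 0.098 for DDB1, 0.017 for CCNE1 and 0.0030 for MCM3AP, none of them called. With each library left out they ran from -0.048 to 0.18 for SKP2, from -0.055 to 0.0077 for DDB1 and from -0.24 to 0.040 for CCNE1.

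Replicate numbers are shared between the groups, but the labels do not say that a number marks a shared day, and there are only 2 pairs. The deviations of same-numbered libraries correlated at 0.40 over genes. A fit with the number as a block called 10 of the 10 members, 2715 genes lower and 2742 higher. The cause of these changes was not tested. The table leaves out genes of low count, and with 2 libraries a group the depth, at 34718921 reads or more, limits the precision less than the spread between libraries, whose common coefficient of variation was 0.107.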
